A study of Mus musculus with 22 samples.

Results

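Wild-type mouse keratinocytes grown in culture were compared with wild-type whole skin over every gene that the authors' 2 count tables have in common. Of keratinocytes 21596 genes were listed and of tissue 24401 genes, and 19618 of the 26379 genes in either table stand in both. The comparison used 7 of the 22 libraries of the series. They were 3 libraries of primary keratinocytes (2 female, 1 male) and 4 of nonlesional skin (2 male, 2 female), all from mice of strain label WT. These animals lack the K5-Vgll3 transgene, in which the keratin 5 promoter drives VGLL3 in basal keratinocytes and which the study used as a lupus model. The keratinocytes came from tail skin of littermates aged 23 days and were expanded in culture for 3 days, and the animal tag of each library names a numbered cell line. Neither body site nor age is given for the skin samples. RNA was isolated with Buffer RLT from keratinocytes and with TriPure from skin, and the libraries were counted in separate tables. Culture, body site, age, RNA kit, counting table and any sequencing batch therefore go together and cannot be told apart. Only differences of at least 8-fold are called here. The fold is that of a fit adjusted for sex, so the ratio of the group means can lie under 8 in a called gene. The study's title asks about VGLL3 and autoimmunity, and the sources used here state no purpose for setting wild-type cultures against wild-type skin.

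Epidermis renews itself from a basal layer of dividing keratinocytes that make keratins 5 and 14 and hold on to the basement membrane through hemidesmosomes. Cells that leave this layer change to keratins 1 and 10, build a cornified envelope and release barrier lipids. After wounding or explantation keratinocytes are known to switch to keratins 6, 16 and 17, to migrate and to secrete cytokines. Whole skin also holds hair follicles, glands, dermal fibroblasts, vessels, nerves, immune cells, fat and a thin striated muscle, which a keratinocyte culture is meant to lack.

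Total counts in the tables were 35237307 to 46636350 per keratinocyte library and 19600892 to 40678246 per skin library. Shared genes held 99.98% to 99.99% of the keratinocyte counts and 94.9% to 97.4% of the skin counts. Levels are CPM, counts as a share of the library on a per-million scale, over library sizes scaled by the TMM method, and a log2 fold change is keratinocytes minus skin. Of 16130 genes with enough counts to test, 372 were higher in keratinocytes (2.31%) and 2343 were lower (14.5%), at an edgeR adjusted p under 0.05 and a log2 fold change of at least 3 in size. These are called large differences below. The shares of 2.31% and 14.5% are the reference for every count of list members below. At the adjusted p alone 66.8% of genes passed. The 3 keratinocyte libraries and the 4 skin libraries did not overlap in any of the 372 higher genes and overlapped in 52 of the 2343 lower ones. The call itself selects genes with separated groups. Lack of overlap in a called gene, here or below, is therefore a description and no separate support. The median over all tested genes was -0.08. Among the lower genes, 455 had a skin mean of at least 50 CPM, and 131 of the higher genes had such a mean in keratinocytes.

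**Figure D1:**
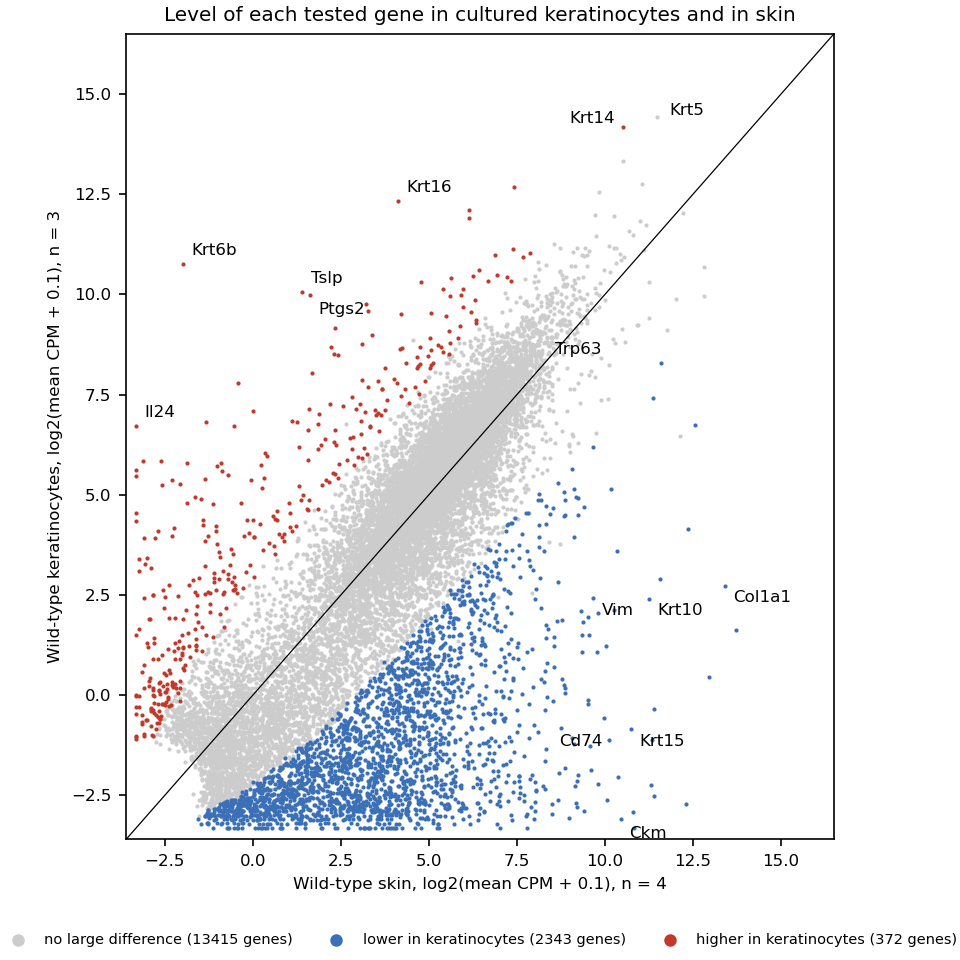
Mean level of each of the 16130 tested genes in wild-type skin (horizontal, 4 libraries) and in wild-type keratinocytes (vertical, 3 libraries), both as log2(CPM + 0.1), with the line of equal level. The 372 higher genes (red) lie above the line, among them Krt14, Krt16, Krt6b, Tslp and Il24, and the 2343 lower genes (blue) below it.

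Skin libraries differed among themselves far more than cultures did. The chi-square per degree of freedom between replicates was 12.1 to 33.3 in keratinocytes and 102 to 644 in skin, so no library was a copy of another. Skin replicate 2 had the fewest hair shaft transcripts and the most collagen, and skin replicate 3 the most hair shaft transcripts. Collagen genes took 8.48% of the shared counts in replicate 2 and 0.792% in replicate 3. In bulk skin, fewer cells of a type and less RNA per cell cannot be told apart, and all levels are shares of a library.

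The basal keratinocyte markers were high in the cultures, and 6 of 15 were large and higher against 1 that was lower (list median 2.48). Over all tested genes 2.31% were large and higher and 14.5% large and lower. Krt14, which encodes the type I keratin of basal cells (chromosome 11, 100203162 to 100207548 on mm10), had 17206, 19057 and 19026 CPM in the 3 keratinocyte libraries and 1220.1, 1643, 1662 and 1356 CPM in the 4 skin libraries. All cultures lay above all skin samples, with a log2 fold change of 3.65 (SE 0.28, adjusted p = 7.67e-05). Its type II partner Krt5 (chromosome 15, 101707070 to 101712898) had 20683, 22979 and 21834 CPM against 2454, 3622, 2997 and 2383 CPM. That log2 fold change, 2.95 (SE 0.30, adjusted p = 0.000222), lies just under the minimum of 3. Other higher members serve adhesion to laminin, among them the integrin chains Itga3 and Itgb4 and the laminin chains Lama3 and Lamb3. Itga3, a laminin-binding chain, had 1798, 1498 and 1409 CPM in culture against 80.6, 67.6, 112 and 81.7 CPM in skin and was 18.4-fold higher (log2 fold change 4.15), and Lama3 27.5-fold higher (4.77).

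The exception among basal markers was Krt15, a type I keratin of resting basal cells and of the hair follicle bulge. It had 0.426, 0.562 and 0.378 CPM in the cultures and 1424, 3032, 1037 and 1335 CPM in skin. Skin was thus higher in every library, 3749.5-fold by the means (log2 fold change -11.69, SE 0.58, adjusted p = 2.7e-05). Trp63, the p63 transcription factor that keeps the epidermal fate, had 475, 477 and 498 CPM in culture and 289, 330.03, 345 and 338 CPM in skin, a log2 fold change of 0.56 that is under the 8-fold minimum.

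Early differentiation keratins were low in the cultures, while several other suprabasal genes were not. None of the 15 suprabasal markers was large and higher and 7 were large and lower (list median -1.78, 5 lower without skin replicate 3). The share of lower genes over all tested genes was 14.5%. Krt10, the type I keratin of spinous cells (chromosome 11, 99385254 to 99389364), had 4.76, 4.52 and 6.32 CPM in culture and 1750.00, 5031, 864 and 1999.96 CPM in skin. Every skin library exceeded every culture, with a log2 fold change of -8.58 (SE 0.67, adjusted p = 8.47e-05). Krt77, a suprabasal type II keratin, had 0.402, 0.25 and 0.432 CPM against 1631, 5192, 1058 and 2372 CPM (-12.57). By contrast Dmkn (dermokine), a secreted protein of upper layers, had 1826, 1923 and 2422 CPM in culture and 917, 2574, 851 and 1193 CPM in skin, and these ranges overlap. Lgals7 (galectin-7) had a mean of 782 ± 112 CPM against 848 ± 116 CPM in skin, with a log2 fold change of -0.11 (SE 0.18).

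In the cornified envelope list 4 of 30 members were higher and 4 lower, with a median of 0.07. Over all tested genes 2.31% were higher and 14.5% lower, so the lower count is close to that share. The higher members were Rptn, Lce1g, Lce3a and Lce3b, and the lower ones Lor, Flg2, Hrnr and Lce1m. Lor (loricrin), the main glycine-rich envelope protein of cornified cells, had 15, 21.4 and 31.5 CPM in culture and 334, 1439, 199 and 430.05 CPM in skin (log2 fold change -4.39, adjusted p = 0.000986). Lce1m, a late cornified envelope gene, had 0.828, 0.593 and 1.19 CPM against 179, 773, 114 and 235 CPM. Lce3b, from the Lce3 group that is known to be induced by barrier damage, went the other way with 29.9, 37.5 and 99.1 CPM in culture and 0.0475, 0, 0.639 and 0 CPM in skin. All 3 cultures lay above all 4 skin libraries for Lce3b, and below all 4 for Lor, Flg2 and Lce1m. Flg2 (filaggrin-2) was 50.1-fold lower. Of the envelope genes, 13 share at least 10% of their 50-base stretches with other genes, so reads of these near copies may be split or lost.

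Barrier lipid genes mostly stayed under the 8-fold minimum, with none of 19 higher, 2 lower and a median of 0.21. The lower count does not exceed the 14.5% of all tested genes. Alox12e, an epidermal lipoxygenase, was one of the 2, at 0.757, 0.998 and 0.513 CPM in culture and 163, 365, 196 and 201 CPM in skin (-8.23), and the ceramidase Acer1 was the other. Abca12, the lipid transporter of lamellar bodies, had a mean of 578 ± 84.2 CPM in culture and 109 ± 38.7 CPM in skin, a log2 fold change of 2.47.

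The wound and stress keratinocyte list held many large differences, all in 1 direction. Of 32 shared members 29 were tested, 22 were large and higher and none was lower. Over all tested genes 2.31% were higher and 14.5% lower. The list median was 5.98 (5.61 with genes that have no count in a group set at their bound). The median was 5.10 with 21 higher without skin replicate 2, and 6.61 with 24 higher without skin replicate 3. In this list 8 members share at least 10% of their 50-base stretches with other genes, so their reads may be split or lost. Krt16 (chromosome 11, 100246091 to 100248902), a type I keratin of wounded and hyperproliferative epidermis, had 4406, 4984 and 6109 CPM in culture and 4.08, 7.47, 51.6 and 6.11 CPM in skin, where replicate 3 stood above the other 3. Krt6a and Krt6b, adjacent genes for the type II partners of Krt16 (chromosome 15, 101689910 to 101694307 and chromosome 15, 101676023 to 101680287), share 45.7% and 50.1% of their 50-base stretches with other genes, so the split of reads between them is uncertain. Krt6a had 5993, 6541 and 7226 CPM against 104, 59.9, 379.7 and 136 CPM (log2 fold change 5.39). Krt6b had 1375, 1516 and 2333 CPM in culture and 0.095, 0.0759, 0.237 and 0.201 CPM in skin (13.32). For all 3 genes every culture was higher than every skin sample. Krt17, a keratin of wounds and also of the hair follicle sheath, was abundant in both, with a mean of 10194 ± 466 CPM against 1459.9 ± 826 CPM and a log2 fold change of 2.83, under the minimum.

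**Figure D2:**
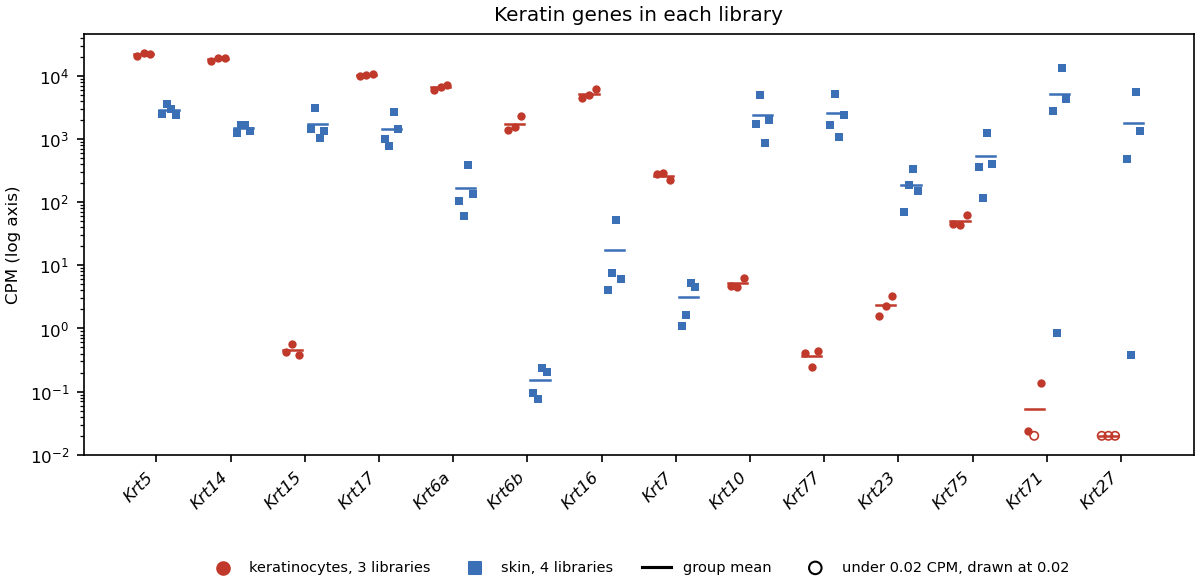
CPM (log axis) of 14 keratin genes in each of the 3 keratinocyte libraries (circles) and 4 skin libraries (squares), with group means as bars and values under 0.02 CPM as open symbols at 0.02. Krt6b, Krt16 and Krt7 are high in culture and low in skin, Krt15, Krt10 and Krt77 the reverse, and skin replicate 2 has little Krt71 or Krt27.

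Over the whole keratin family, 38 of 40 shared genes were tested, of which 7 were higher, 21 were lower and 10 had no large difference. A further 15 keratin genes stand only in the tissue table. Per kilobase of exon, the order in culture was Krt14 (10483 CPM per kb), Krt5 (9937), Krt17 (6573), Krt16 (3301), Krt6a (2724) and Krt6b (779). In skin the corresponding levels were 836, 1303, 941, 11.1, 70.2 and 0.0681 CPM per kb. Krt7, a keratin of simple and glandular epithelia, had 275, 290.5 and 223 CPM in culture and 1.09, 1.63, 5.23 and 4.58 CPM in skin, and was the only member of 6 simple epithelial keratins that was large and higher. Krt20 and Krt23 in the same list were large and lower, Krt23 with a log2 fold change of -6.27.

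Small proline-rich genes, whose proteins are cross-linked into the envelope of stressed epidermis, made up 9 of the 22 higher wound genes. Sprr2b had 1157 counts in the 3 cultures and 1 in the 4 skin libraries, 1345-fold higher (95% counting interval 241 to 53164). Sprr2a3, a further copy outside the list with 61.1% of its 50-base stretches in other genes, had 196, 225 and 245 CPM against 0.237, 0.759, 1.25 and 0.352 CPM. Stfa1 (stefin A1), an inhibitor of cysteine proteases, had 21.5, 25.2 and 45.9 CPM in culture and 0.285, 0.341, 0.071 and 0.176 CPM in skin. For Sprr2b, Sprr2a3 and Stfa1 the cultures were above every skin sample. Sprr1a, in the same family, did not pass the test (adjusted p = 0.401), with 821, 912 and 1431 CPM in culture and 142, 114, 2550.4 and 653 CPM in skin, and its skin libraries spanned a wider range than the cultures.

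The promoters of these genes were searched for the AP-1 letters TGACTCA, the binding letters of Fos and Jun dimers, on both strands (TGAGTCA on the other). RefSeq promoters (GRCm38.p6, 250 bases before to 50 after each start) were matched for 43 of the 57 members of the wound and protease lists. Of these, 17 held a match in any of their promoters, against 5.95% of all 27025 genes with a promoter. Among members with a large higher value 12 of 21 held one, among lower members 2 of 5 (Mmp3 and Mmp12), and among members with no large difference 2 of 12. Below are 11 stretches from such higher members, with up to 30 bases on each side of the match nearest the start and none past the start, shown because the Sprr2 copies hold the letters at nearly the same distance. Capitals mark the AP-1 match nearest the start, and Sprr2k holds a second match in lower case, at position -196 from the start.
Sprr2b (chr3:92316480-92316546, plus strand): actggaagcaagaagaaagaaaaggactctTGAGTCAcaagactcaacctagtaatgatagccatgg
Sprr2d (chr3:92338917-92338983, plus strand): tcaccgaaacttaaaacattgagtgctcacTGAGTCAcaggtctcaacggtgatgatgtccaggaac
Sprr2e (chr3:92351920-92351986, plus strand): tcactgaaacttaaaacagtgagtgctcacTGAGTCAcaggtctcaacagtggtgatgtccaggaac
Sprr2f (chr3:92364960-92365026, plus strand): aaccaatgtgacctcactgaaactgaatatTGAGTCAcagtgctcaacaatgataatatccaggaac
Sprr2i (chr3:92407768-92407834, plus strand): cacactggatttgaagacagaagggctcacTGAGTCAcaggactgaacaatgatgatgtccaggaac
Sprr2k (chr3:92432370-92432436, plus strand): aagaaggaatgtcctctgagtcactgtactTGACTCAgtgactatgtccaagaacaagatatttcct
Il1f8 (chr2:24152922-24152972, plus strand): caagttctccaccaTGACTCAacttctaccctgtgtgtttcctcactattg
Mmp1b (chr9:7388083-7388149, minus strand): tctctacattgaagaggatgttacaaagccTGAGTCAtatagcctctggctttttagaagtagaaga
Mmp10 (chr9:7502249-7502315, plus strand): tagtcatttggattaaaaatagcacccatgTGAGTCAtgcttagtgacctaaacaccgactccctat
Mmp13 (chr9:7272449-7272513, plus strand): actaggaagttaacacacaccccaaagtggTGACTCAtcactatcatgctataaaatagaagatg
Plaur (chr7:24462384-24462450, plus strand): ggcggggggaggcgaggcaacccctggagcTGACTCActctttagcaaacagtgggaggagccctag
The match nearest the start lay 195, 193, 193, 197, 193 and 182 bases before the start in Sprr2b, Sprr2d, Sprr2e, Sprr2f, Sprr2i and Sprr2k, 236 bases before it in Il1f8, and 93, 63, 35 and 69 bases before it in Mmp1b, Mmp10, Mmp13 and Plaur. The Sprr2 promoters are copies of one another and not independent. A match is a description of letters and says nothing on binding.

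Epidermal cytokines and chemokines were the other strongly higher group, with 14 of 24 members large and higher, 3 large and lower and a median of 3.85. The lower count is near the 14.5% of all tested genes, of which 2.31% were higher. Tslp, an epithelial cytokine that acts on dendritic cells and type 2 lymphocytes, had 1240.1, 1083 and 889 CPM in culture and 1.71, 4.48, 1.42 and 2.62 CPM in skin, 419-fold higher by the means (log2 fold change 8.77, SE 0.50, adjusted p = 3.56e-05). Il24, a cytokine of the interleukin-10 family (chromosome 1, 130882074 to 130887454), had 11980 counts in the cultures and 0 counts in all 4 skin libraries. With a floor of 3 counts over the skin group it was at least 4642-fold higher. Il33, an alarmin stored in keratinocyte nuclei, had 1287, 1118 and 1373 CPM against 34.3, 49.7, 11.6 and 14.4 CPM. For each of these cytokines the cultures lay above all skin samples.

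Neutrophil-attracting chemokines were part of that group. Cxcl1 had 127, 134 and 145 CPM in culture and 1.52, 0.607, 0.497 and 0.956 CPM in skin. Cxcl5 had 6328 counts in culture and 2 in skin, 3678-fold higher (95% counting interval 1018 to 30375). Cxcl14, a chemokine made constitutively by epithelia, was among the 3 lower members (with Il1b and Ccl27a), at 12.7, 13.3 and 13 CPM in culture against 234, 208, 425 and 252 CPM in skin. Ptgs2, the inducible cyclooxygenase that makes prostaglandins, had 1203, 889 and 925 CPM against 5.32, 2.54, 1.66 and 2.42 CPM (8.57). Of the EGF family, 3 of 15 were higher (Hbegf, Epgn and Nrg1) and 2 lower (Egf and Spry4). The lower count is close to the 14.5% of all tested genes, of which 2.31% were higher. Hbegf, a ligand of the EGF receptor released at wounds, was 11.9-fold higher, and Nrg1, a ligand of the ERBB3 and ERBB4 receptors, 55.7-fold higher. Egf itself had 0.497, 0.437 and 0.378 CPM in culture and 11.4, 16.4, 6.37 and 8.23 CPM in skin.

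**Figure D3:**
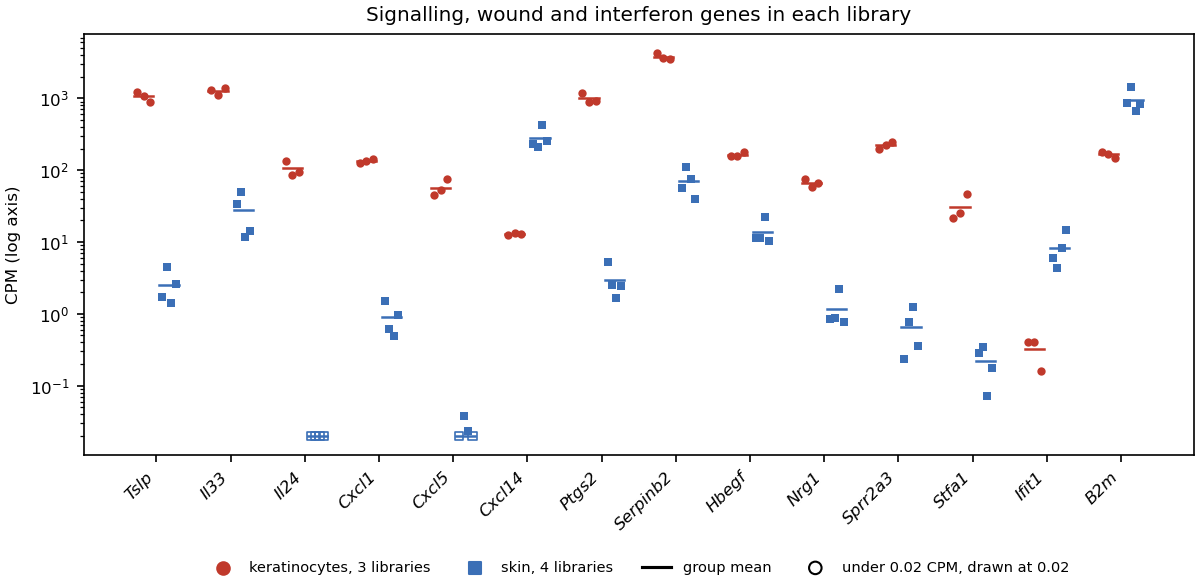
CPM (log axis) of 14 signalling, wound and interferon genes in each of the 3 keratinocyte libraries (circles) and 4 skin libraries (squares), with group means as bars and values under 0.02 CPM as open symbols at 0.02. Tslp lies far higher in every culture than in any skin library, and Cxcl14, Ifit1 and B2m are higher in every skin library than in any culture.

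All large differences among interferon-stimulated and class I genes were toward skin. Of 23 tested interferon-stimulated genes 12 were large and lower and none was higher (median -3.20). Ifit1, which binds viral RNA, had 0.402, 0.406 and 0.162 CPM in culture and 5.98, 4.32, 8.19 and 14.9 CPM in skin, and Rsad2 (viperin) had 0.071, 0.218 and 0.054 CPM against 6.74, 4.44, 7.41 and 8.8 CPM. Among 13 genes of MHC class I and peptide processing, 4 were large and lower (median -1.70). Over all tested genes 14.5% were large and lower and only 2.31% higher, so most lists would lean toward skin. Nlrc5, the transactivator of class I genes, was 57.4-fold lower, and the class Ib gene H2-Q7 279-fold lower. B2m, the light chain of class I molecules, was under the minimum at 180.3, 169 and 147 CPM against 853, 1431, 662 and 831 CPM (-2.43). Immune cells of skin, whose markers moved with these lists (17 of 19 macrophage and dendritic cell genes lower), express both lists as well, and their part in the result was not tested.

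Adhesion and migration genes leaned to the cultures. Of 20 integrin and migration genes, 3 were large and higher (Itga2 and Cd44 among them), 1 was lower and the median was 1.89. The lower count is under the 14.5% of all tested genes, of which 2.31% were higher. Cd44, the hyaluronan receptor, was 9.57-fold higher (3.21), a call lost with total count or housekeeping scaling. Among 15 desmosome and adherens junction genes all had positive log2 fold changes (median 1.23) and 2 were large and higher. With total count scaling 14 were positive (median 0.96). Of 20 housekeeping genes 16 were positive (median 0.36), and 11 with total count scaling, so signs depend in part on scaling. Dsg3 (desmoglein-3), the desmosomal cadherin of lower epidermal layers, had 1466, 1378 and 1362 CPM against 68.2, 63.2, 112 and 60 CPM. Dsc2 had 536, 531 and 714 CPM in culture and 12.3, 10.4, 200.4 and 12.7 CPM in skin, with skin replicate 3 far above the other 3, and its call was lost when keratinocyte replicate 3 or skin replicate 1 or 2 was left out. Dsp (desmoplakin), which ties desmosomes to keratin, was abundant in both (means of 6873 ± 348 and 2134 ± 468 CPM).

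Proteases and their inhibitors went both ways, with 6 of 23 higher and 8 lower, against 2.31% and 14.5% of all tested genes. The higher members were Mmp1b, Mmp9, Mmp10, Mmp13, Plaur and Serpinb2. Serpinb2 (plasminogen activator inhibitor 2) had 4291, 3598 and 3556 CPM in culture and 56.1, 112, 75 and 39.5 CPM in skin, 54-fold higher. Mmp2, a gelatinase made mainly by fibroblasts, had 2.96, 4.18 and 4.11 CPM against 639, 1756, 221 and 301 CPM and was 195-fold lower. Plat, tissue plasminogen activator, was 37.9-fold lower.

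The Hippo pathway, which the transgene of this series concerns through VGLL3, showed few large differences. Of 20 Hippo target genes none was large and higher and 1 was lower (median 1.08). Of 15 genes for VGLL, TEAD, YAP and their kinases none differed largely in either direction (median 0.59). Over all tested genes 2.31% were higher and 14.5% lower. Vgll3 itself (chromosome 16, 65815257 to 65866368) had 247, 210.2 and 211 CPM in wild-type cultures and 70, 88.1, 38.9 and 46.1 CPM in wild-type skin, a log2 fold change of 2.04 (SE 0.24, adjusted p = 0.000412) with groups that do not overlap. Axl, a receptor tyrosine kinase and YAP target, had means of 833 ± 47.1 and 223 ± 29.7 CPM (1.93). F3 (tissue factor) had 558 ± 173 and 84.9 ± 29.8 CPM (2.75). Yap1 had 271 ± 2.88 and 214 ± 12.6 CPM. The 1 lower target was Ankrd1, with 0.237, 0.156 and 0.162 CPM in culture and 0.475, 5.77, 0.592 and 5.23 CPM in skin, and this call was lost with limma-voom and without any one of the 3 cultures or skin replicate 4. The TEAD letters CATTCC, searched on both strands, stood in the promoters of 8 of 15 matched Hippo targets, against 16.6% of all genes with a promoter.

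Proliferation genes had positive log2 fold changes, nearly all under the 8-fold minimum. All 25 cell cycle genes had positive log2 fold changes (median 1.67) and none was large. All 30 DNA replication genes were positive (median 1.47), and Rrm2 and Fen1 were large. With total count scaling the medians of the cell cycle and replication lists were 1.37 and 1.18. For reference, 16 of 20 housekeeping genes were positive (median 0.36). Rrm2, a subunit of ribonucleotide reductase, had 454, 441 and 436 CPM in culture and 38.6, 18.3, 59.6 and 76.1 CPM in skin. That call was lost without skin replicate 2, without keratinocyte replicate 3 and with total count or housekeeping scaling. Fen1, the flap endonuclease of lagging strand synthesis, had 7.76, 6.99 and 8 CPM against 0.427, 0.493, 0.687 and 0.78 CPM. Mki67, a marker of cycling cells, had 464, 427 and 427 CPM in culture and 235, 45.3, 240.3 and 311 CPM in skin, where replicate 2 was the lowest (log2 fold change 1.07, adjusted p = 0.103). Letters bound by E2F factors (TTTGGCG or TTTCCCG, both strands) stood in promoters of 11 of 23 matched DNA replication genes. Of all genes with a promoter 5.55% held them. CCAAT, on either strand, stood in promoters of 17 of 20 matched cell cycle genes, against 41.1% of all genes with a promoter. The E2F match in Fen1 starts 24 bases before the start site, with the match in capitals in this stretch.
Fen1 (chr19:10204394-10204447, minus strand): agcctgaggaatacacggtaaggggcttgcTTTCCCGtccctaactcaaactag
These letters too are a description.

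Transcription factors of keratinocytes showed few large differences. Of 23, none was large and higher and 1, Pou2f3, was lower (median -0.25), against 2.31% and 14.5% of all tested genes. Pou2f3, a POU factor of suprabasal cells, had 2.56, 2.93 and 2.49 CPM in culture and 74.7, 122, 45.3 and 69.8 CPM in skin. Klf4, a factor of barrier formation, had means of 294 ± 42.1 CPM in culture and 363 ± 79.4 CPM in skin. Of 24 immediate early and AP-1 genes, Fosl1 and Ier3 were large and higher, and Fosb, Egr2, Nr4a1, Nr4a3 and Klf2 were large and lower. Ier3 had 741, 742 and 754 CPM against 23.3, 35.2, 43.9 and 31.1 CPM. Fosb, an AP-1 subunit induced within minutes of handling or stimulation, had 1.3, 1.65 and 1.7 CPM in culture and 131, 102, 197 and 87.5 CPM in skin, and Egr2 was 13.1-fold lower. In the Notch pathway 3 of 15 were lower (Notch4, Hey1 and Heyl), a count close to the 14.5% of all tested genes, and none was higher. Heyl, a Notch target, had 1 count in the cultures and 5300 in skin, 4559.7-fold lower (95% counting interval 818 to 180131).

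Most genes of the metabolic and stress lists were under the 8-fold minimum. In glycolysis 4 of 24 genes were higher and 1, Pfkm, was lower, against 2.31% and 14.5% of all tested genes. Only 2 of 24 were higher with upper quartile, total count or housekeeping scaling, under which Slc2a1 and Eno1 lost their calls. Of the 24 genes, 6 share at least 10% of their 50-base stretches with other genes. Gapdh had 157, 143 and 122 CPM in culture and only 2.8, 3.26, 2.96 and 2.62 CPM in skin, and 24.7% of its 50-base stretches stand in other genes. Slc2a1, the glucose transporter GLUT1 with no such stretches, had 317, 373 and 394 CPM against 58.1, 56.7, 39.9 and 34 CPM, and its log2 fold change of 3.05 fell under 3 in 7 alternatives, 3 of them other scalings. Of 20 oxidative stress genes 2 were higher and 2 lower, with 1 higher under each of these other scalings. Gsta4, a glutathione transferase that clears lipid aldehydes, had 339.8, 333 and 416 CPM in culture and 6.08, 5.96, 3.58 and 3.67 CPM in skin (6.37). Among 20 p53 and senescence genes 1 was higher and 1 lower. Plk2, a p53 target kinase, was the higher one, at 16.7-fold. In the oxidative stress and p53 lists the lower counts did not exceed the 14.5% of all tested genes, of which 2.31% were higher. None of 24 cholesterol synthesis genes was large in either direction. Of 18 clock genes 3 were lower, a share near the 14.5% of all tested genes. Among them Dbp and Hlf, output factors of the clock, were 18.6-fold and 25.8-fold lower. The labels give no hour of harvest.

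Markers of the other cell types of skin were mostly lower in the cultures. All 11 tested skeletal muscle genes were large and lower (median -10.38), as were 18 of 19 fibroblast and matrix genes (median -7.77). Over all tested genes the share was 14.5%. Col1a1, the main fibrillar collagen chain, had 5.85, 6.36 and 7.37 CPM in culture and 8546, 28393, 1299 and 4899.8 CPM in skin. Dcn (decorin) had 0.166, 0.0312 and 0.027 CPM against 2207, 5356, 1186 and 1982 CPM. The muscle creatine kinase Ckm had 2 counts in the cultures and 162254 in skin, 69795-fold lower (95% counting interval 19321 to 576323). Sparc, a matrix protein that several cell types make, was the most abundant fibroblast list gene left in culture, at 161, 85.9 and 75.7 CPM against 5484, 14984, 837 and 2709 CPM. Mesenchymal transition factors were lower in 7 of 10, with Vim (vimentin) at 6.44, 4.87 and 4.4 CPM against 773, 1029, 399 and 1043 CPM and Zeb1 242-fold lower. Snai2, a factor that keratinocytes also make, had means of 124 ± 7.43 CPM in culture and 27.5 ± 6.42 CPM in skin (2.14).

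**Figure D4:**
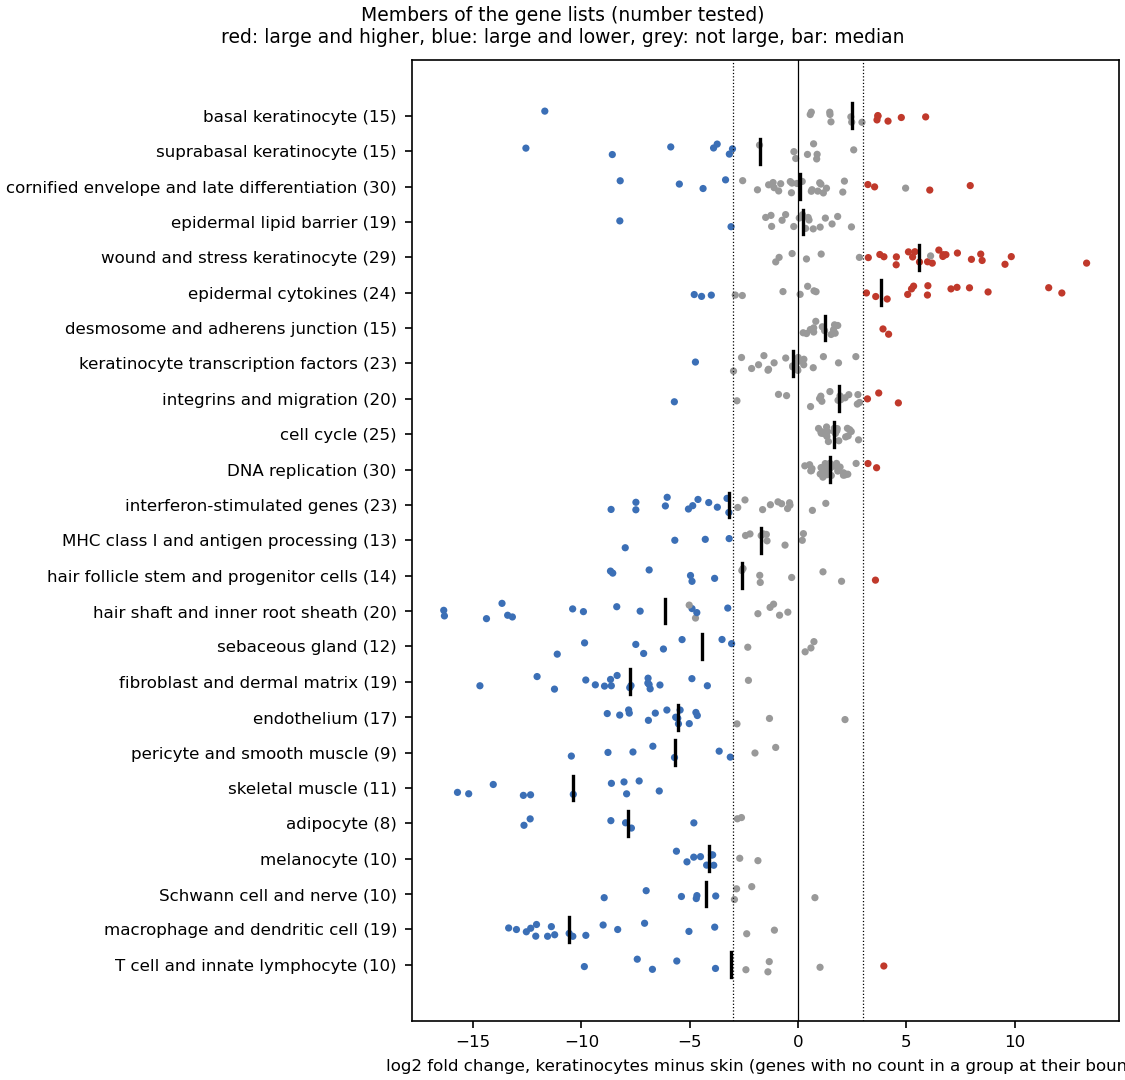
Log2 fold changes (keratinocytes minus skin) of the tested members of 25 gene lists, 1 point a gene, with the list median as a bar, dotted lines at -3 and 3, and genes with no count in a group drawn at the bound from 3 counts. The wound and cytokine lists lie mostly to the right, and the lists of other cell types mostly to the left.

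Immune cell markers were low in the cultures. Of all tested genes 14.5% were large and lower there and 2.31% higher. Of 19 macrophage and dendritic cell genes 17 were large and lower (median -11.24, or -10.57 with genes at their bound). Their summed level was 16.4 to 21.7 CPM in the cultures and 1760.1 to 6477 CPM in skin. Cd74, the invariant chain of class II molecules, had 0.402, 0.468 and 0.216 CPM against 480.03, 1922, 833 and 1161 CPM. C1qa, a complement chain of macrophages, had 0 counts in the 3 cultures and 18136 in skin, at least 5201-fold lower from a floor of 3 counts over the group. Csf1r, the receptor of macrophage growth factor, was 136-fold lower and Lyz2 2550.4-fold lower. Of 10 shared T cell genes 5 were lower, including Ptprc (CD45, 1038-fold) and Trdc of gamma delta T cells (188-fold). The costimulatory receptor Cd28 was the 1 higher member, at 29.4, 22.2 and 21.1 CPM in culture and 0.807, 2.01, 2.04 and 1.16 CPM in skin, although Ptprc stood at 0.0947, 0.0312 and 0 CPM in those cultures. All 3 shared mast cell genes were lower, with Kit at 1.54, 0.936 and 0.648 CPM against 37.4, 10.9, 52.9 and 40 CPM.

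Vessel, fat, gland, nerve and pigment markers were lower as well, beside 14.5% of all tested genes that were large and lower. Of 17 endothelial genes 14 were large and lower (median -5.55). Plvap, a protein of endothelial fenestrae, had 0.284, 0.343 and 0.162 CPM in culture and 113, 91.5, 61 and 74.5 CPM in skin, and Pecam1 was 28.4-fold lower. Flt1, a VEGF receptor, stood apart in that list at 134, 132 and 103 CPM against 55.7, 37.4, 18.3 and 20.7 CPM, with cultures above every skin sample and a log2 fold change of 2.17. Of 9 mural cell genes 7 were lower, led by Myh11 (2109-fold), whereas Acta2 had 109, 77.1 and 57.9 CPM against 413, 328, 199.6 and 353 CPM. Of 8 adipocyte genes 6 were lower, with Lpl at 2.44, 2.28 and 2 CPM and 2059.9, 784, 518 and 826 CPM, and Cfd (adipsin) 7654-fold lower. Of 12 sebaceous gland genes 8 were lower, including Scd3 (164-fold) and Far2 (217-fold), and Scd1, at 143, 193 and 179 CPM in culture against 3923, 4089, 1359.8 and 1216 CPM, whose call was lost without keratinocyte replicate 3. Of 10 Schwann cell genes 6 were lower.

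Pigment cell transcripts were detected in the cultures, and skin replicate 2 had few of them. Of 10 melanocyte genes 8 were large and lower (median -4.11, 9 of 10 without skin replicate 2). Dct, a melanin synthesis enzyme, had 33.8, 13.8 and 10.2 CPM in culture and 334, 21.9, 466 and 465 CPM in skin, and the ranges overlap at skin replicate 2. Tyrp1, another such enzyme, had 52.7, 19.5 and 15.6 CPM against 179, 5.5, 259 and 238 CPM and did not pass the test (adjusted p = 0.0518). Keratinocyte replicate 1 was the highest culture for both. The summed level of the 10 markers was 51.6 to 132 CPM in the cultures and 965, 93.6, 1321 and 1187 CPM in skin, so skin replicate 2 lay within the range of the cultures. The list median was -1.32 in the transgenic libraries.

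Hair genes depended on the skin library. Of 20 shared hair shaft and inner root sheath genes 13 were large and lower in culture (median -6.16), 15 without skin replicate 2 and 8 of 16 without skin replicate 3. The summed level of the list was 6637, 188, 42874 and 11142 CPM in the 4 skin libraries and 257 to 322 CPM in the cultures, so skin replicate 2 lay below them. Krt71, an inner root sheath keratin, had 0.0237, 0 and 0.135 CPM in culture and 2741, 0.835, 13222 and 4340.2 CPM in skin. Krt27, another inner root sheath keratin, had 0 counts in the cultures and 479, 0.379, 5444 and 1345 CPM in skin, at least 84151-fold lower from a floor of 3 counts over the group. Both calls were lost with limma-voom. Tchh (trichohyalin) had 68.6, 87.3 and 109 CPM against 1665, 6.56, 13469 and 2632 CPM and did not pass the test (adjusted p = 0.0543), and skin replicate 2 lay below the cultures. Krt75, a keratin of the companion layer, had 44.3, 44 and 62.5 CPM against 366, 115, 1255 and 399 CPM, and its call was lost without skin replicate 3 or keratinocyte replicate 1 or 2.

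Among hair follicle stem and progenitor markers 1 of 14 was higher and 6 were lower, against 2.31% and 14.5% of all tested genes. Lgr5, a Wnt pathway receptor of follicle stem cells, had 0.118, 0.0624 and 0.162 CPM in culture and 29.4, 38.2, 42.6 and 65.2 CPM in skin, with no such drop in skin replicate 2. Lhx2 was 28.9-fold lower, and Cd34, which bulge cells share with vessels and fibroblasts, 453-fold lower. Plet1, a surface protein of the upper follicle, was the higher member at 517, 502 and 620.1 CPM against 23, 34, 92.6 and 39.7 CPM, a call lost without keratinocyte replicate 3. Sox9, a factor of bulge and outer root sheath, had means of 239 ± 15.9 and 57.9 ± 12.8 CPM, a log2 fold change of 2.01. Lef1, on the hair shaft list, marks the dividing matrix of the hair bulb and had 0.0947, 0.0624 and 0 CPM in culture and 47.9, 4.55, 75 and 59.2 CPM in skin.

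Hox genes, which keep a record of position along the body, split by paralogue number. Of 35 shared Hox genes 33 were tested, 6 were large and higher and 8 large and lower, against 2.31% and 14.5% of all tested genes. All 6 higher ones were of paralogue groups 9 to 13 (6 of 12 tested, median 2.99), and all 8 lower ones of groups 1 to 8 (8 of 21 tested, median -2.05). In groups 1 to 8, 20 of 21 log2 fold changes were negative, and in groups 9 to 13, 9 of 12 were positive. Hoxd10 (chromosome 2, 74691924 to 74695105) had 21.2, 21.7 and 20.4 CPM in culture and 1.99, 1.67, 1.02 and 1.13 CPM in skin (3.98). Hoxc11 and Hoxc12 had 8.71, 9.7 and 9.37 CPM and 3.46, 4.18 and 3.27 CPM in the cultures, against 0.712, 0, 0.379 and 0.0755 CPM and 0, 0.0379, 0.0947 and 0 CPM in skin. Hoxd11 had 590 counts in culture and 3 in skin, 229-fold higher (95% counting interval 77.8 to 1112).

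In the other direction Hoxc8 had 0.308, 0.593 and 0.324 CPM in culture and 37.1, 51.9, 19.8 and 49.2 CPM in skin, Hoxc6 1.18, 1.06 and 1.65 CPM against 23.9, 26.2, 13.2 and 23.1 CPM, and Hoxa5 1.66, 2.25 and 1.89 CPM against 19.7, 22.2, 17 and 23 CPM. The groups did not overlap for these 3 genes. Hoxa9 was the weakest of the higher calls (3.04), at 65.1, 66.1 and 62 CPM against 20.6, 5.31, 7.2 and 4.2 CPM, and was lost under 9 of the alternatives tried. The cultures are from tail, the skin site is not given, and dermal cells also express Hox genes, so site and cell type cannot be told apart here.

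**Figure D5:**
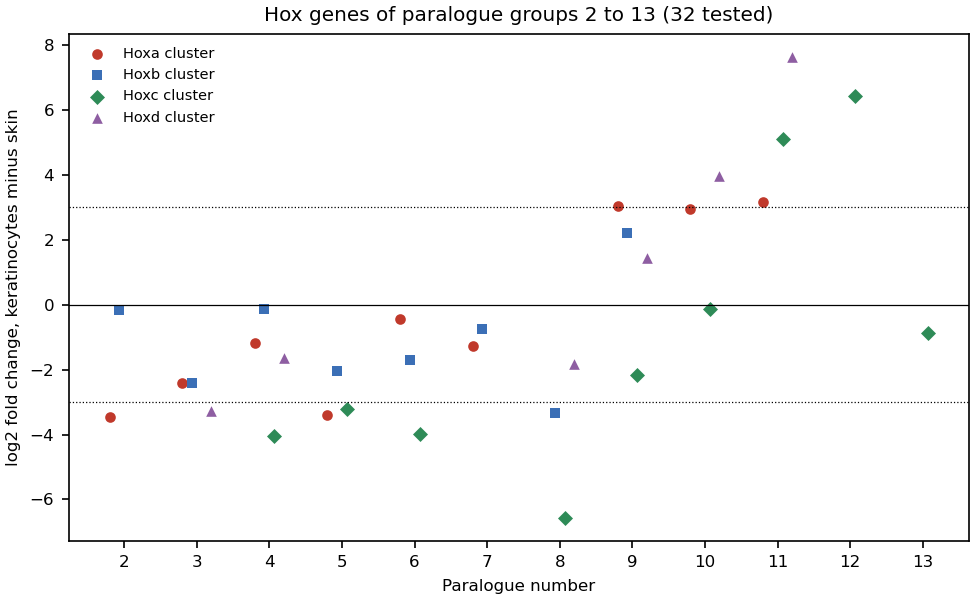
Log2 fold change (keratinocytes minus skin) of the 32 tested Hox genes of paralogue groups 2 to 13 against paralogue number, with 1 symbol for each of the 4 clusters and dotted lines at -3 and 3. The 6 large higher genes have numbers from 9 to 12 and the 8 large lower genes numbers from 2 to 8.

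Among the most abundant genes of the cultures were Krt5, Krt14, Krt17, Dsp, Krt6a, Anxa1 and Krt16, and among those of skin Col1a2, Col1a1, Col3a1, mt-Cytb, mt-Co1, Sparc, Acta1 and Krt71. Anxa1 (annexin A1) had means of 5960.3 ± 513 and 908 ± 183 CPM (2.70). Mitochondrial mRNAs were lower in culture in all 7 tested protein genes (median log2 fold change -2.02), 1 of them by more than 8-fold. mt-Cytb had 1082, 932 and 947 CPM in culture and 9119, 8789.6, 5411 and 5548 CPM in skin. Among abundant genes with a log2 fold change under 0.5 in size were the ribosomal protein gene Rpl4 (1954 ± 29.9 and 1475 ± 201 CPM) and the ATP synthase subunit gene Atp5b (1846 ± 30.2 and 1395 ± 65.6 CPM).

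The same contrast in libraries that share no sample with it, 3 transgenic cultures and 4 transgenic skin samples, gave 458 higher genes (2.85%) and 2378 lower genes (14.8%) of 16088 tested. Of the 372 higher wild-type genes 266 were also large and higher there, which is 71.5% of the wild-type list and 58.1% of the transgenic one. Of the 2343 lower genes 1964 were also large and lower, 83.8% and 82.6% of the lists. The transgenic libraries carry the same confounding of culture, site, age, kit, table and any sequencing batch. Krt14, Krt10, Tslp and Col1a1 had transgenic log2 fold changes of 3.45, -9.25, 8.83 and -8.26. The median of the wound list was 3.98 there and that of the cytokine list 0.86, while the hair shaft list had -1.61. In 1 gene that was large and higher in wild type the transgenic difference was large and lower. Ccl20, a chemokine for CCR6 that was chosen after its values were seen, had 18, 15.6 and 14.8 CPM in wild-type cultures and 0.142, 2.16, 1.73 and 2.97 CPM in wild-type skin, but 2.89, 2 and 3.53 CPM in transgenic cultures and 6.75, 1.57, 37.7 and 109 CPM in transgenic skin. The difference of the contrasts for Ccl20 did not pass the test over all genes (edgeR adjusted p = 0.104). The wild-type call of Ccl20 was lost under 5 of the alternatives that kept the fold minimum at 3.

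Matching genes between the tables set a limit on what was compared. The lowest row total in the keratinocyte table is 6 counts, whereas the tissue table lists genes with 0. Of the 4783 genes listed only for tissue, 992 had a mean of at least 1 CPM of all counts in wild-type skin, and they include the muscle genes Myh4 (2535 CPM) and Des (879), the hair keratins Krt25 (2409) and Krt35 (409) and the fibroblast gene Lum (599.7). Such genes have no keratinocyte value here, so the lists of other cell types are described without these members (10 of 30 hair genes, 10 of 20 T cell genes and 8 of 11 mast cell genes). With these genes entered at 0 in the other table, 3634 genes were lower and 400 higher.

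Genes that share sequence with other genes were called higher more often. Of 12602 tested genes with under 10% of their 50-base transcript stretches in other genes, 1.90% were large and higher, and of 1127 genes with 10% or more, 4.79% were. For lower genes the shares were 15.8% and 9.32%. Ribosomal protein genes, which have many processed copies in the genome, had a median of 0.03 in the 16 genes with under 10% and 0.93 in the 66 with more. The part of read mapping in these differences was not tested. Tslp, Ptgs2, Il24, Il33 and Fen1 had no stretch in common with another gene.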

How the data were processed

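Stranded mRNA libraries (TruSeq, Illumina) were aligned with STAR 2.5.2 to mm10 and counted with HTSeq 0.6.1, per the submitters' processing notes. The authors deposited raw counts per gene in 1 table for tissues and 1 for keratinocytes, and no column of samples was left unmapped (0 columns). Counts were joined by gene symbol and scaled by TMM, from which CPM was computed. Differences were tested with edgeR 4.0.16 (quasi-likelihood test, filterByExpr, sex as covariate, Benjamini-Hochberg over all genes tested), and a large difference needed an adjusted p under 0.05 and a log2 fold change of at least 3 in size. All edgeR p-values measure the spread between these samples. The transgenic contrast had no covariate. DESeq2 1.42.0, limma 3.58.1, other scalings, filters, fold minimums and leaving out each library were alternatives. Gene lengths and positions came from GENCODE M21 and promoters from RefSeq (GRCm38.p6).

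The members and the gene lists were chosen with earlier results of these data known. Named genes were Krt5, Krt14, Trp63 and Vgll3, and the 10 highest and 10 lowest large differences of at least 50 CPM whose groups did not overlap. For those highest and lowest genes, lack of overlap was thus fixed by the choice. Unnamed gene models, antigen receptor variable segments, Xist and Y-linked genes were left out of that choice. Also named were the 3 most abundant and the 3 called members of smallest p of each list. The 8 most abundant genes of each group, Hox genes of at least 1 CPM, and 6 abundant genes with little change were added. Not every such gene is reported here, and some results are left out. Other members named to complete a count, or shown by promoter, were chosen after their values were seen. On simulated data with 16130 genes, 65 of 66 genes changed 16-fold were called large, and so were 3 genes left unchanged. Of genes changed 2-fold 0 of 68 were called, which the 8-fold minimum all but fixes in advance. The simulation changed equally many genes up and down, unlike the real data, where most large differences were lower. Counting intervals are exact binomial at 95% and, like the floor of 3 counts, cover counting error only.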

Additional observations from a re-analysis of the deposited data

Results flagged for a closer look

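In wild-type skin, 1 library stood apart from the other 3 by Dixon's test in 11 of the 129 named genes. Chance flags about 1 in 20 groups of normally distributed values, a rate that need not hold for CPM, least of all near 0. Replicate 3 was the high library for Lce3b (0.639 CPM), Krt16 (51.6), Dsg3 (112), Dsc2 (200.4), Yap1 (233), Hbegf (22.4), Nrg1 (2.23) and Hoxd11 (0.0710). Replicate 2 was the library apart for F3 (129 CPM) and H2-Q7 (49.9), and replicate 4 for Sprr2b (0.0252). For Sprr2b and Hoxd11 the other 3 libraries had 0 CPM, where any count in 1 library sets off the flag.

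The difference between keratinocytes and skin itself differed between wild-type and transgenic libraries in 122 of 15906 genes (0.767%) by an interaction term in edgeR, added after the data were seen. Among the named genes 6 passed. The wild-type minus transgenic difference of log2 fold changes was 1.01 for Axl (adjusted p = 0.0448), 3.14 for Flt1 (0.0207), -3.37 for Lyz2 (0.0402), 3.39 for Cd28 (0.0131), 1.85 for Hoxd10 (0.0185) and 1.43 for Anxa1 (0.0378). For Vgll3 it was 1.57 (adjusted p = 0.334). The transgenic cultures were all male, so sex goes with that contrast in part.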

How the results depend on the processing

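With a minimum log2 fold change of 2 in place of 3, 834 genes were higher, and with 4, 197 were. With genes of 1 table entered at 0 in the other, an alternative chosen after seeing the data, 3634 genes were lower. Leaving out each library in turn gave 361 to 401 higher and 2196 to 2387 lower wild-type genes, and 449 to 519 and 2289 to 2427 transgenic ones. DESeq2 gave 386 higher and 2347 lower genes, and limma-voom 388 and 2319. Upper quartile, total count and housekeeping scaling gave medians over all genes of -0.24, -0.35 and -0.31, against -0.08, and 340, 316 and 320 higher genes. With 1 library left out, the log2 fold change of Lgals7 ranged from -0.26 to 0.033 (without wild-type skin replicate 3), and that of Sprr1a from -0.87 (without wild-type keratinocyte replicate 3) to 1.93. The cause was not tested. Of the named genes with a large difference, 22 lost the call under at least 1 alternative, 13 of them with the fold minimum kept at 3, and none reversed. No paired analysis was possible because cultures and skin came from different animals. Depth limits genes with few counts, for which bounds or counting intervals are given.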
